A study of Mus musculus with 37 samples.

Results

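The 9 genes described here encode the receptor chains through which natural killer (NK) cells sense the interleukins IL-2, IL-15, IL-21, IL-12 and IL-18: Il2ra, Il2rb, Il2rg, Il15ra, Il21r, Il12rb1, Il12rb2, Il18r1 and Il18rap. They were chosen by name from the 53700 genes counted in bulk RNA-seq of uterine NK (uNK) cells, and all 9 were measured in all 37 libraries. The uNK cells came from C57BL6 mice at gestation day 9.5 to 10.5 and, per the study's methods, were live CD45+ NKp46+ cells lacking CD3, CD4, CD8 and high CD11b. They were sorted by 2 inhibitory receptors for MHC class I, NKG2A and Ly49C/I, whose engagement by self MHC is the process called NK-cell education. From WT mice there were 9 libraries of uneducated cells (negative for both receptors), 9 of NKG2A+ cells without Ly49C/I and 6 of Ly49C/I+ cells without NKG2A. From mice labelled NKG2A KO there were 8 libraries of uneducated and 5 of Ly49C/I+ cells. Cells with both receptors were not collected, and neither the labels nor the methods say whether each library of a group had its own animal, so the p-values measure the spread between libraries, which may be technical. The methods give an age only for mice whose spleen, brain or bone marrow is named, not for the pregnant mice. Library numbers are those of the labels' descriptions, since the titles number the WT Ly49C/I+ libraries differently, except that WT uneducated library 5, whose description repeats that of library 4, is numbered by its title.

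The receptors fall into 3 families. IL-2 and IL-15 share a signalling pair of chains, Il2rb (CD122) and the common gamma chain Il2rg, to which Il2ra (CD25) adds high affinity for IL-2 and Il15ra binds and presents IL-15, and IL-21 signals through Il21r together with Il2rg. IL-12 is bound by Il12rb1 and Il12rb2, which act mainly through STAT4, and IL-18 by Il18r1 and its accessory chain Il18rap, which act through MyD88. IL-15 is needed for NK cells, uNK cells included, to develop and survive, and IL-12 with IL-18 is a classical stimulus of interferon-gamma release.

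In the GENCODE M21 annotation of GRCm38, both IL-18 receptor genes lie next to each other on the plus strand of chromosome 1, Il18r1 at chr1:40465552-40500854 and Il18rap at chr1:40515362-40551705, with 14507 bases between them. Il2ra (chr2:11642807-11693193) and Il15ra (chr2:11705290-11734317) are likewise neighbours on the plus strand, 12096 bases apart. Il12rb2 lies on the minus strand at chr6:67291318-67376188, Il12rb1 at chr8:70808449-70821424, Il21r at chr7:125603429-125633570, Il2rb on the minus strand at chr15:78479256-78495271 and Il2rg on the minus strand at chrX:101264378-101268255. The 250 bases before the first annotated start of 4 of these genes are shown, 3 because the genes rose together in NKG2A+ cells and Il2ra because it fell in every educated group. They are RefSeq sequences of GRCm38.p6, written 5′ to 3′ on the gene's strand, with capitals marking the only match found in them to the motifs searched.
Il18r1, chr1:40465302-40465551, plus strand: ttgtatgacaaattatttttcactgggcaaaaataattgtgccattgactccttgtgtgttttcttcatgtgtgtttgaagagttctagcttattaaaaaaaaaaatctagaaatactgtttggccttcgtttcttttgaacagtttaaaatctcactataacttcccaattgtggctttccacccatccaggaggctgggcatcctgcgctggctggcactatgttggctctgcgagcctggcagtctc
Il18rap, chr1:40515112-40515361, plus strand: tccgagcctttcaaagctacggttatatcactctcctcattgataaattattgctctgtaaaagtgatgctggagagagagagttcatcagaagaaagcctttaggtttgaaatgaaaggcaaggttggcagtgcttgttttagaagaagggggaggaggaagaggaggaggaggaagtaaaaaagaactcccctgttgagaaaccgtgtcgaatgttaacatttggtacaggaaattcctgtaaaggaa
Il12rb2, chr6:67376189-67376438, minus strand: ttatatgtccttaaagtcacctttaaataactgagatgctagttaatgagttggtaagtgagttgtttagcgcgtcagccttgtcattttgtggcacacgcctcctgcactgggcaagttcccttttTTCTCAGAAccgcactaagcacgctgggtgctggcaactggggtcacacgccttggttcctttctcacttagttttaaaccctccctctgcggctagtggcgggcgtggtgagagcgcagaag
Il2ra, chr2:11642542-11642791, plus strand: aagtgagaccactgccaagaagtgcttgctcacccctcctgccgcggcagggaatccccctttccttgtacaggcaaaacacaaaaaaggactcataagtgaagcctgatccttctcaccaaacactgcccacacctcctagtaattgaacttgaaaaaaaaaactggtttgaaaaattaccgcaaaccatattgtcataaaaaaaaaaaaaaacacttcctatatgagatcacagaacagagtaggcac

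On both strands the searches used the STAT-binding GAS motif TTCNNNGAA, which is its own reverse complement, the T-box motif AGGTGTGA and the AP-1 motif TGACTCA. Of 32851 promoters of the same length, 7.02% held the first, 1.12% the second and 4.463% the third. RefSeq promoters were matched for 7 of the 9 genes, the others being Il2rb and Il12rb1. Il12rb2 held 1 GAS match, which began 123 bases before the start. The windows of the first starts of Il18r1, Il18rap, Il2ra, Il2rg, Il15ra and Il21r held none of these motifs. A later start of Il18r1 had 2 GAS matches and a later start of Il15ra had 1 AP-1 match. A match describes the letters only.

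Between 13287163 and 18875033 reads per library fell on genes, with a median of 17273311. The sort was visible in the transcripts: Klrc1, which encodes NKG2A, was at 495 to 753 CPM (counts scaled to the library total) in NKG2A+ libraries and at 0.781 to 13.9 CPM in all others. Klra9, encoding Ly49I, had medians of 677 and 964 CPM in WT and NKG2A KO Ly49C/I+ libraries and of 64.5 to 102 CPM elsewhere, while Klra3, encoding Ly49C, had log2 fold changes of -1.31 (WT) and -0.64 (NKG2A KO) in Ly49C/I+ against uneducated cells, genes of this family sharing much sequence. Since every NKG2A KO library was sorted NKG2A-negative, Klrc1 does not check that genotype. Of the NK markers, Ncr1 had group medians of 627 to 960 CPM. Several defining genes of other lineages were near 0, and others were not. Cd4, Cd8a and Cd8b1 had counts in 2, 3 and 7 libraries and the B cell gene Ms4a1 in 2, and the summed stromal genes had group medians of at most 1.02 CPM. Cd3g ranged over 29.9 to 183 CPM, Cd3d over 4.02 to 47.3 CPM and H2-Ab1 over 5.17 to 321 CPM, and the summed macrophage and monocyte genes ranged over 6.47 to 346 CPM, with none of the latter called between cell types. WT uneducated library 5 had counts on 13990 genes, whereas the others of its group had counts on 15572 to 16680. In bulk libraries, fewer cells of a type and less RNA per cell cannot be told apart.

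The receptor genes spanned a wide range of levels, which were compared per length as CPM per kilobase of exons. Il2rb was highest, with a median of 834 CPM per kilobase over the 37 libraries (738 to 983), and Il2rg was next at 229 (186 to 366). Il21r followed at 112, Il12rb1 at 30.7 and Il12rb2 at 17.0 CPM per kilobase. Below these came Il18rap at 12.4, Il2ra at 5.58, Il15ra at 4.31 and Il18r1 at 2.95 CPM per kilobase. Il2rb exceeded Il2rg, Il2rg exceeded Il21r and Il21r exceeded Il12rb1 in 37 of 37 libraries, and Il12rb1 exceeded Il12rb2 in 36. The values of Il12rb2 and Il2rg were not adjusted for their exon overlaps with Serbp1 and Gm20489, which are described below. The lower neighbours did not keep one order: Il12rb2 exceeded Il18rap in 26 libraries, Il18rap exceeded Il2ra in 29, Il2ra exceeded Il15ra in 22 and Il15ra exceeded Il18r1 in 23. The chain that signals for IL-2 and IL-15 was therefore far above the private alpha chains, and also the steadiest of the 9, with a highest library only 1.33 times its lowest. Il2ra and Il18r1 varied most, by 28.0 and 28.1 times between the lowest and the highest library, but each rested on 1 library, at 3.58 CPM for Il2ra and 1.62 CPM (26 reads) for Il18r1, and counted from the next lowest the values were 9.5 and 11.6 times.

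**Figure D1:**
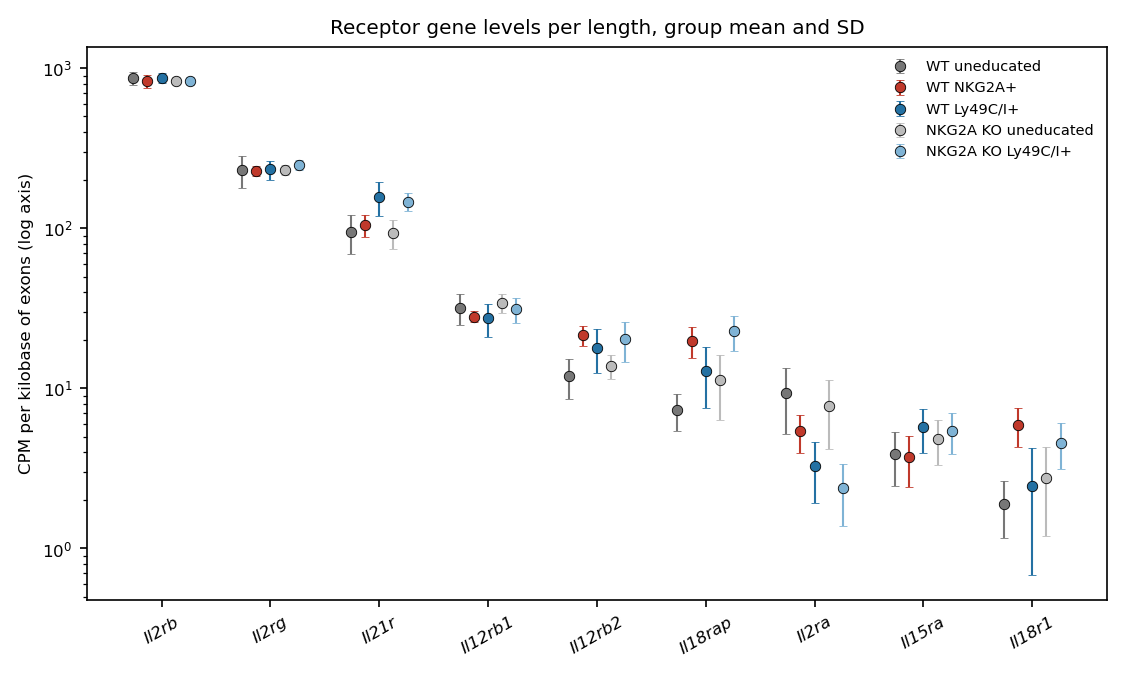
Mean level of each receptor gene per group, in CPM per kilobase of exons on a log axis, with bars for the SD over the libraries of the group (5 to 9). Il2rb, Il2rg, Il21r and Il12rb1 keep their places in every group, whereas Il18rap, Il2ra, Il15ra and Il18r1 change places between groups, Il2ra lying above Il18rap in the mean of WT uneducated cells only.

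The first question was how NKG2A+ cells differed from uneducated cells in WT mice. Both IL-18 receptor genes and Il12rb2 rose and Il2ra fell, while the shared chains Il2rb and Il2rg passed in neither direction. Of the 9 genes, 3 passed the test as higher and 1 as lower, against 7.47% higher and 7.56% lower of the 9339 genes tested. The median log2 fold change was -0.01 over the 9 genes and 0.01 over all genes tested. Folds and adjusted p-values here and later come from edgeR's quasi-likelihood test with Benjamini-Hochberg adjustment over all genes tested, and all 9 receptor genes passed its filter in every comparison.

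Il18r1, the chain that binds IL-18, was at 3.92 CPM in the lowest, 9.76 in the median and 13.5 in the highest WT uneducated library, and at 18.5, 27.0 and 45.6 CPM in NKG2A+ libraries. The groups did not overlap, and the log2 fold change was 1.66 ± 0.24 (standard error, SE; adjusted p = 7.56e-05). Il18rap, the accessory chain that makes the receptor signal, was at 25.5, 47.4 and 75.0 CPM in uneducated and at 85.9, 138 and 191 CPM in NKG2A+ libraries. Again all 9 NKG2A+ libraries lay above all 9 uneducated libraries, and the difference was 1.44 ± 0.16 on the log2 scale (adjusted p = 2.92e-06). Il12rb2, the signalling chain of the IL-12 receptor, was at 25.7, 42.5 and 64.5 CPM in uneducated and at 66.0, 79.5 and 95.9 CPM in NKG2A+ libraries. Its groups did not overlap either, although the lowest NKG2A+ library was only just above the highest uneducated one, and the log2 fold change was 0.86 ± 0.15 (adjusted p = 0.00045). These 3 calls were kept in all 29 other fits, which included the omission of WT uneducated library 5.

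Il2ra moved the other way. It was at 23.0, 49.4 and 100.1 CPM in the lowest, median and highest uneducated library and at 20.0, 29.2 and 44.6 CPM in NKG2A+ libraries, so that the groups overlapped, with 1 NKG2A+ library below all uneducated ones. The log2 fold change was -0.78 ± 0.23 (adjusted p = 0.0242), and the call was kept in 26 of 29 other fits. It was lost when WT uneducated library 1, the highest, was left out (-0.62, adjusted p = 0.0606). Il12rb1, the chain that the IL-12 and IL-23 receptors share, had a log2 fold change of -0.17 ± 0.12 (adjusted p = 0.366), which became -0.26 (adjusted p = 0.0218) without WT uneducated library 5, the library with the lowest Il12rb1 value.

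The chains that passed no test can be bounded by the 95% interval of the log2 fold change. Those of Il2rb ran from -0.20 to 0.09, of Il2rg from -0.24 to 0.21, of Il21r from -0.16 to 0.47 and of Il15ra from -0.55 to 0.44. The interval was narrow for Il2rb and Il2rg, and wide enough for Il15ra, the least expressed of these 4, to hold a sizeable change.

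**Figure D2:**
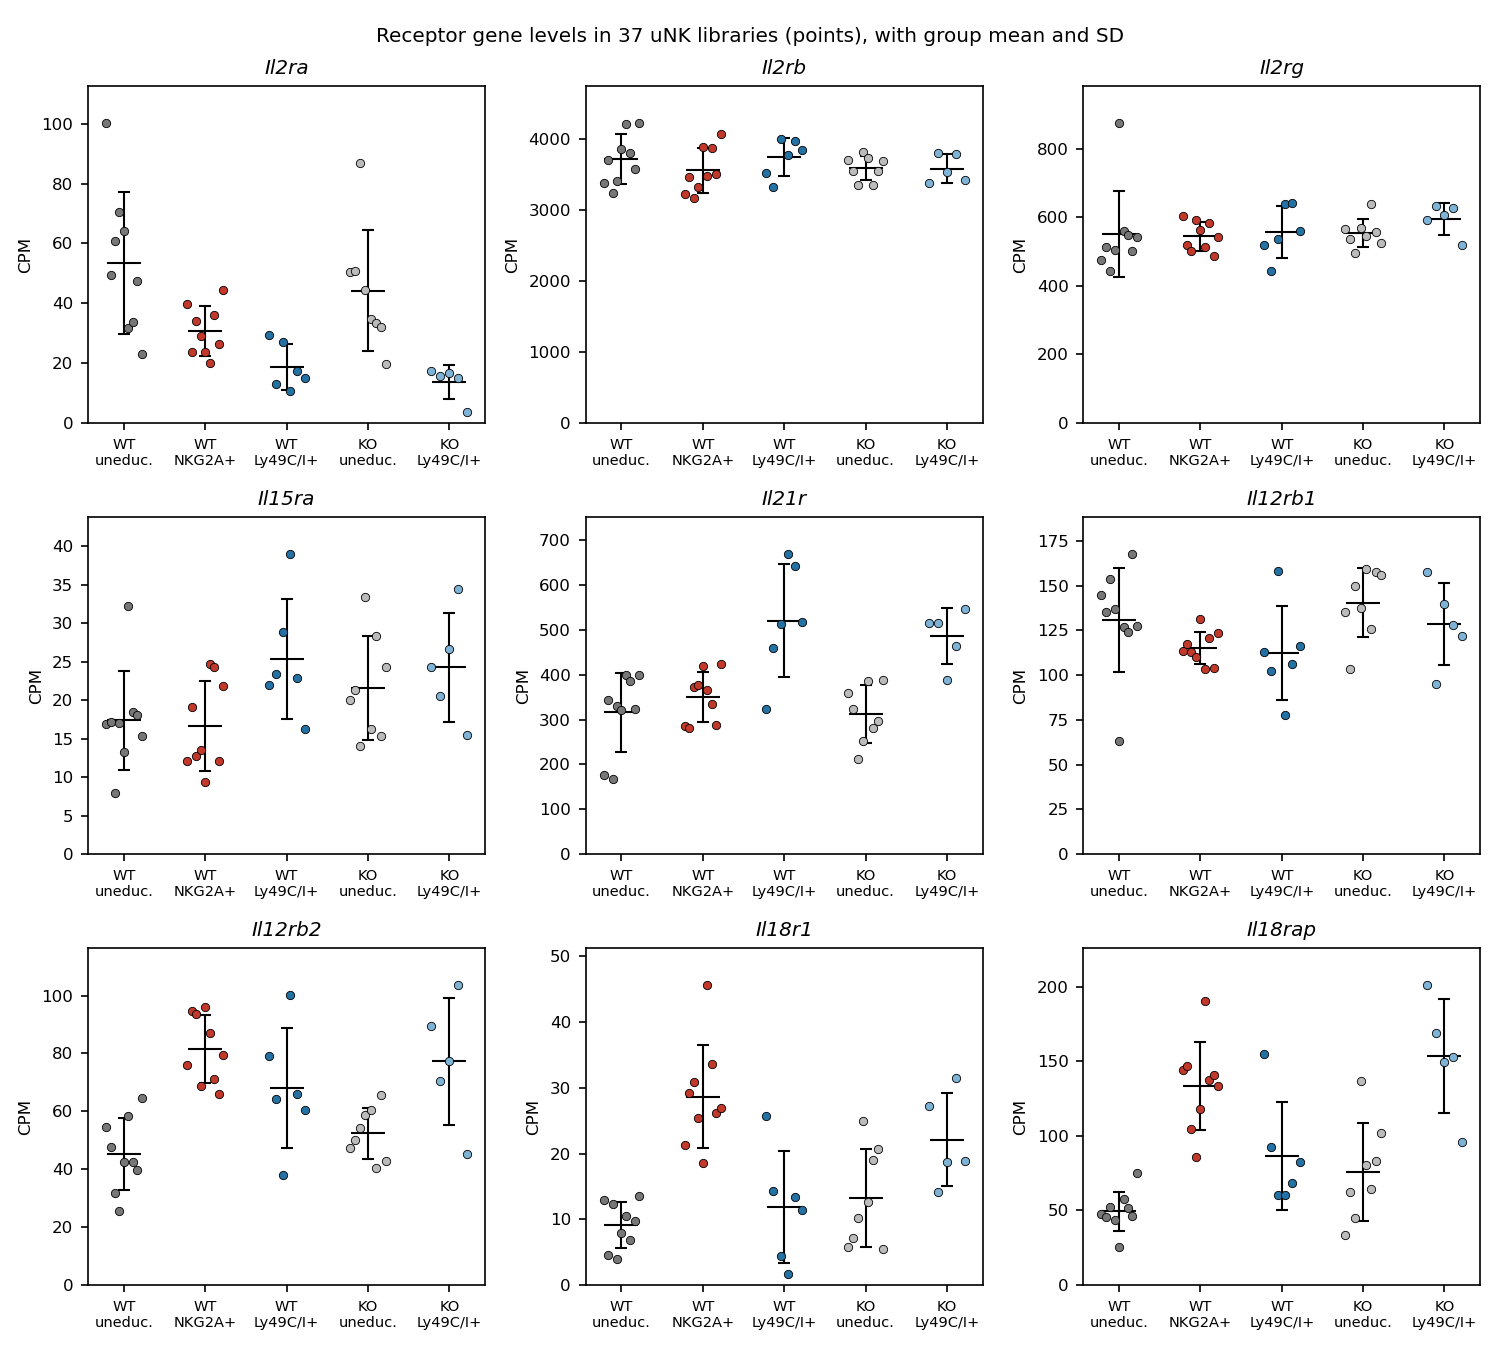
Level of each receptor gene in CPM in the 37 libraries (points) of the 5 groups, with the group mean (horizontal bar) and SD (whiskers), each panel starting at 0. Il18r1, Il18rap and Il12rb2 of the 9 NKG2A+ libraries sit above all 9 WT uneducated libraries, Il2ra is highest in uneducated cells of both genotypes, and Il21r is highest in Ly49C/I+ cells.

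Markers of other cells moved with this comparison, and their part in it was not tested. Of the 6 T cell genes, Cd3d rose by 1.19 ± 0.24 on the log2 scale (adjusted p = 0.00156). Cd3g, at a higher level than Cd3d, did not pass and had a value below 0 (-0.13 ± 0.24, adjusted p = 0.773). Cd3e reached the count minimum only through the NKG2A+ libraries, so that its test is not used, and was at 1.15, 3.04 and 8.35 CPM in the lowest, median and highest uneducated and at 6.30, 13.1 and 32.9 CPM in NKG2A+ libraries. The summed T cell genes ranged over 39.6 to 153.5 CPM in uneducated and 68.8 to 180 CPM in NKG2A+ libraries. Of 5 genes associated with ILC1, a tissue-resident innate lymphoid cell that shares NKp46, Cxcr6 rose (2.86 ± 0.38, adjusted p = 2.68e-05) and Itga1 fell (-0.36 ± 0.11, adjusted p = 0.0222), and the summed level of the list ranged over 203 to 397 CPM and 218 to 492.9 CPM. Cd200r1 and Il7r of this list also reached the minimum only through NKG2A+ libraries, where their medians were 15.1 and 19.9 CPM, beside 1.80 and 4.08 CPM in uneducated ones. H2-Ab1, an MHC class II gene of antigen-presenting cells, fell by 1.62 ± 0.38 on the log2 scale (adjusted p = 0.00546), like Il2ra. Itgax of the same dendritic cell list did not pass (0.14 ± 0.21, adjusted p = 0.715). The summed genes of this list ranged over 263 to 667 CPM in uneducated and 259 to 545 CPM in NKG2A+ libraries. Gata3 of the ILC2 and ILC3 list rose by 0.37 ± 0.12 (adjusted p = 0.0416). Of the 6 NK markers, 5 rose, by between 0.37 (Nkg7) and 0.71 (Klrk1).

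Ly49C/I+ cells were compared with uneducated cells in each genotype, and these comparisons have no library in common. In both, Il2ra fell and Il21r and Il18rap rose. Il12rb2 had similar log2 fold changes in WT (0.61) and NKG2A KO mice (0.56), of which only the latter passed the threshold. In WT mice 2 of the 9 genes passed as higher and 1 as lower, against 4.5% and 4.7% of 9292 genes, and in NKG2A KO mice 3 passed as higher and 1 as lower, against 7.34% and 8.99% of 9299 genes. The median log2 fold changes of the 9 genes were 0.39 and 0.17, beside 0.01 and 0.02 over all genes tested.

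Il2ra was at 29.5, 12.9, 27.1, 10.5, 17.4 and 15.1 CPM in the 6 WT Ly49C/I+ libraries (numbers 1, 2, 4, 5, 7 and 8). Of these, 4 lay below every WT uneducated library, and the log2 fold change was -1.50 ± 0.31 (adjusted p = 0.00713). In NKG2A KO mice it was at 17.4, 15.6, 16.6, 14.9 and 3.58 CPM in the Ly49C/I+ libraries (numbers 4 to 8), against 19.8, 39.7 and 86.9 CPM in the lowest, median and highest uneducated library. The NKG2A KO groups did not overlap, and the log2 fold change was -1.69 ± 0.36 (adjusted p = 0.00505). The call was kept in all 25 other fits in WT and in all 23 in NKG2A KO mice. H2-Ab1 fell in the same comparisons, by 1.67 ± 0.42 in WT and 2.59 ± 0.43 in NKG2A KO mice on the log2 scale (adjusted p = 0.0195 and 0.000985), and its part in the Il2ra result was not tested. Itgax, of the same dendritic cell list as H2-Ab1, rose in NKG2A KO Ly49C/I+ cells (0.67 ± 0.11, adjusted p = 0.000888). In WT Ly49C/I+ cells Itgax did not pass (0.68 ± 0.24, adjusted p = 0.0886). The ILC1-associated Tnfsf10 rose in NKG2A KO Ly49C/I+ cells (0.72 ± 0.14, adjusted p = 0.00302), as did 5 of 6 NK markers, whereas 3 of 6 NK markers rose in WT Ly49C/I+ cells.

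Il21r, the receptor for a cytokine made mainly by activated CD4 T cells, was at 323, 460, 512, 668.5, 642 and 517 CPM in the 6 WT Ly49C/I+ libraries, against 166.5, 330 and 400 CPM in the lowest, median and highest uneducated library. Except for library 1, the Ly49C/I+ libraries lay above all uneducated ones, and the log2 fold change was 0.74 ± 0.19 (adjusted p = 0.0231). It was 0.64 without Ly49C/I+ library 5 and 0.66 without library 7, with adjusted p = 0.0665 and 0.0698. In NKG2A KO mice Il21r was at 516, 516, 389, 465 and 547 CPM, against 211, 311 and 389 CPM in uneducated libraries. Here 4 of 5 Ly49C/I+ libraries lay above all uneducated ones, the log2 fold change was 0.65 ± 0.13 (adjusted p = 0.00395), and the call was kept in all 23 other fits.

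Il18rap was at 155, 92.5, 60.3, 60.3, 68.5 and 82.6 CPM in WT Ly49C/I+ libraries, of which 3 exceeded the highest uneducated library. Its log2 fold change of 0.83 ± 0.21 (adjusted p = 0.0213) became 0.57 (adjusted p = 0.0709) without Ly49C/I+ library 1, which was far above the rest. In NKG2A KO mice it was at 201, 169, 149.5, 153 and 96.0 CPM, against 33.3, 72.6 and 137 CPM in uneducated libraries, a log2 fold change of 1.02 ± 0.26 (adjusted p = 0.0128). Il18r1 varied more, and in the WT Ly49C/I+ libraries was at 25.7, 14.3, 4.36, 1.62, 13.3 and 11.5 CPM, with a log2 fold change of 0.39 ± 0.45 (adjusted p = 0.65) that turned to -0.02 without library 1. In NKG2A KO Ly49C/I+ libraries it was at 27.3, 14.2, 18.7, 31.5 and 18.8 CPM, against 5.47, 11.5 and 25.0 CPM in uneducated ones, and its log2 fold change was 0.74 ± 0.36 (adjusted p = 0.168). The groups overlapped in both genotypes, and the 95% intervals of the Il18r1 log2 fold change ran from -0.55 to 1.32 in WT and from -0.02 to 1.50 in NKG2A KO mice.

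Il12rb2 was at 79.0, 64.4, 38.1, 100.3, 66.1 and 60.5 CPM in WT Ly49C/I+ libraries, and its log2 fold change was 0.61 ± 0.21 (adjusted p = 0.0745). Libraries 2, 4 and 8 lay within the uneducated range. The gene passed in 7 of 25 other fits, and leaving out 1 library moved its value between 0.45 (adjusted p = 0.203, without Ly49C/I+ library 5) and 0.72 (adjusted p = 0.0351, without Ly49C/I+ library 4), and without WT uneducated library 9 it also passed (0.68, adjusted p = 0.046). In NKG2A KO mice Il12rb2 was at 89.6, 70.5, 77.5, 103.5 and 45.1 CPM, against 40.3, 52.1 and 65.6 CPM in uneducated libraries. The log2 fold change was 0.56 ± 0.17 (adjusted p = 0.0309), the call was kept in 13 of 23 other fits, and the adjusted p reached 0.11 (0.43 on the log2 scale) without Ly49C/I+ library 7. Exons of Il12rb2 overlap those of Serbp1 on the opposite strand over 1519 of 3794 bases, and the sources used here do not say whether the counting used strand. Ambiguous reads were counted apart, and whether reads on the shared bases were among them was not tested. Serbp1, at 503 to 884 CPM over the libraries, moved the other way in these comparisons, by -0.34 ± 0.09 in WT and -0.33 ± 0.06 in NKG2A KO mice (adjusted p = 0.0229 and 0.00291), and the part of its reads in the Il12rb2 values was not tested.

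Neither shared chain passed. Il2rb was at 3322 to 3993 CPM in WT Ly49C/I+ and 3374 to 3791 CPM in NKG2A KO Ly49C/I+ libraries, inside the ranges of the uneducated libraries of each genotype, 3241 to 4212 and 3343 to 3816 CPM. The 95% intervals of its log2 fold change ran from -0.13 to 0.18 in WT and from -0.11 to 0.12 in NKG2A KO mice. For Il2rg they ran from -0.26 to 0.31 and from -0.04 to 0.26, and with offsets for GC content and length Il2rg passed in NKG2A KO mice, at 0.25 (adjusted p = 0.0253) in place of 0.11 (adjusted p = 0.328). Il2rg shares 27.5% of its stretches of 50 bases with 1 overlapping gene model on the same strand, Gm20489, which had 0 reads in all libraries. Exons of Gm20489 cover 728 of the 2387 exon bases of Il2rg. Because ambiguous reads were counted apart, the 0 does not say whether reads fell on the shared bases. Any loss of such reads from the Il2rg values was not tested. Il15ra was at 22.0, 23.4, 28.9, 38.9, 22.8 and 16.2 CPM in WT Ly49C/I+ libraries, against 7.99, 17.1 and 32.2 CPM in uneducated ones, and its log2 fold change of 0.57 ± 0.25 did not pass (adjusted p = 0.171). In NKG2A KO Ly49C/I+ libraries it was at 24.3, 20.5, 26.7, 34.4 and 15.5 CPM, with a log2 fold change of 0.17 ± 0.24 (adjusted p = 0.678). Il12rb1 was at 77.9, 110 and 158 CPM in the lowest, median and highest WT Ly49C/I+ library and at 63.4, 135 and 167 CPM in uneducated ones, and passed in neither genotype (-0.20 ± 0.17 and -0.12 ± 0.12, adjusted p = 0.494 and 0.528).

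**Figure D3:**
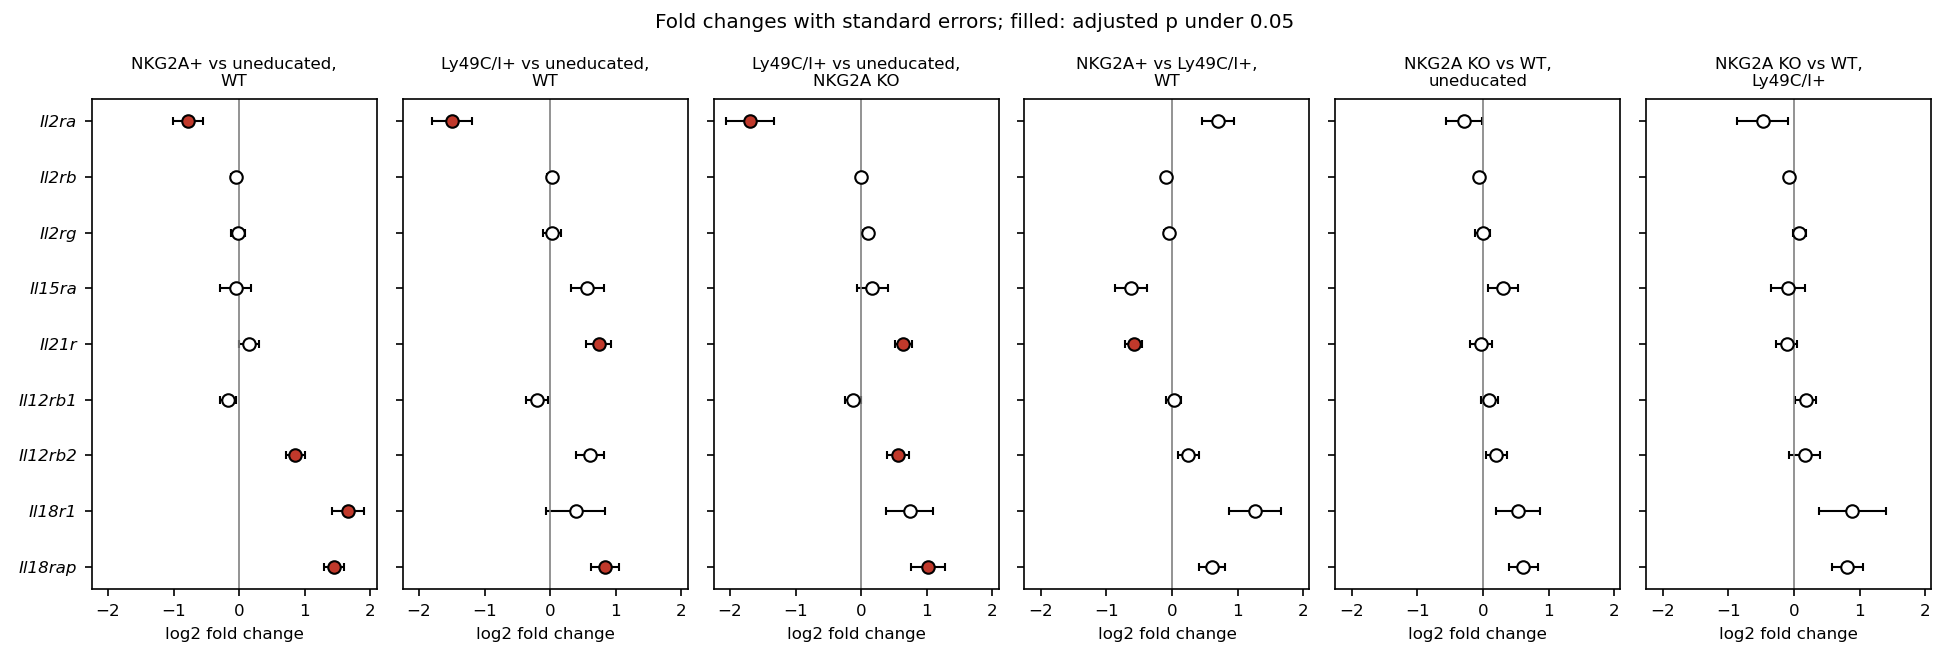
Log2 fold change of each receptor gene (points) with its standard error (bars) in 6 comparisons, filled where the adjusted p of edgeR's quasi-likelihood test was under 0.05. Il2ra lies left of 0 and Il18rap right of 0 in all 3 comparisons of educated with uneducated cells, Il21r is filled wherever WT Ly49C/I+ cells are compared with other WT cells and in NKG2A KO Ly49C/I+ cells, and no gene is filled in the 2 comparisons of genotypes.

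NKG2A+ and Ly49C/I+ cells of WT mice were then compared with each other, which tests whether the receptors used for education go with different cytokine receptors. Il21r was the only one of the 9 genes to pass, lower in NKG2A+ cells, and none passed as higher, against 1.42% lower and 1.31% higher of 9308 genes. The median log2 fold change of the 9 genes was 0.03, and that of all genes tested was -0.00062. Both populations had been set against the same uneducated libraries above. The lowest, median and highest Il21r values were 281, 367 and 423 CPM in NKG2A+ libraries and 323, 515 and 668.5 CPM in Ly49C/I+ libraries, and the log2 fold change was -0.59 ± 0.13 (adjusted p = 0.023). It was -0.50 without Ly49C/I+ library 5 and -0.52 without library 7 (adjusted p = 0.0619 and 0.0731). Il18r1 and Il18rap were higher in NKG2A+ cells by values of 1.27 ± 0.40 and 0.61 ± 0.20 on the log2 scale that did not pass (adjusted p = 0.0916 and 0.102). For Il18r1, 6 of 9 NKG2A+ libraries lay above all Ly49C/I+ ones. Both depended on Ly49C/I+ library 1, the highest of its group for both genes, without which the values were 1.65 and 0.86 (adjusted p = 0.0255 and 0.00708). The difference of Il2ra was 0.71 ± 0.24 (adjusted p = 0.123), and that of Il12rb2 was 0.25 ± 0.16 (adjusted p = 0.453). The ILC1-associated Cxcr6 (2.13 ± 0.45, adjusted p = 0.0146) and the NK marker Ncr1 (0.38 ± 0.06, adjusted p = 0.00389) were higher in the NKG2A+ libraries too, and their part in these differences was not tested.

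Between genotypes no receptor gene passed. In NKG2A KO mice the NKG2A-negative gate cannot leave out cells that would have carried NKG2A. The populations compared may thus differ in make-up, which was not tested. None of 9288 genes in uneducated cells (0.0%), of 9344 in Ly49C/I+ cells (0.0%) and of 9322 for the difference of the Ly49C/I+ effect (0.0%) did so in edgeR's quasi-likelihood test, where 619, 992 and 407 genes had an unadjusted p under 0.05. The likelihood ratio test of edgeR called 1, 60 and 1 genes, and DESeq2 called 1, 118 and 1. Il18rap had the smallest unadjusted p of the 9 genes in both genotype comparisons, with log2 fold changes of 0.62 ± 0.23 in uneducated and 0.81 ± 0.24 in Ly49C/I+ cells of NKG2A KO mice (adjusted p = 0.636 and 0.262). The other 8 genes lay between -0.29 (Il2ra) and 0.53 (Il18r1) in uneducated and between -0.48 (Il2ra) and 0.89 (Il18r1) in Ly49C/I+ cells. For Il18rap in Ly49C/I+ cells the value was 1.06 (adjusted p = 0.0436) without WT Ly49C/I+ library 1. The change of the Ly49C/I+ effect with genotype had 95% intervals on the log2 scale of -1.15 to 0.79 for Il2ra and -0.60 to 0.45 for Il21r. They were -0.52 to 0.93 for Il18rap, -0.61 to 0.55 for Il12rb2 and -0.20 to 0.17 for Il2rb.

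Ratios between partner chains, per kilobase, describe the balance of their transcripts, and receptor protein was not measured. Il18rap over Il18r1 had group medians of 3.52 (WT NKG2A+) to 5.25 (NKG2A KO Ly49C/I+), so that the transcript of the accessory chain was the more abundant one in every group. The ratio of Il12rb1 to Il12rb2 had a median of 2.62 in WT and 2.50 in NKG2A KO uneducated libraries, and of 1.38 in NKG2A+, 1.48 in WT Ly49C/I+ and 1.63 in NKG2A KO Ly49C/I+ libraries. In NKG2A+ libraries it stayed between 1.10 and 1.56, whereas WT uneducated libraries ranged over 1.38 to 4.93, and over 1.82 to 4.93 without library 5. Of the 3794 exon bases of Il12rb2, 1519 overlap exons of Serbp1, and this ratio was not adjusted for that. Il2rb over Il2ra had a median of 99.9 in WT uneducated, 152 in NKG2A+, 321 in WT Ly49C/I+, 124 in NKG2A KO uneducated and 323 in NKG2A KO Ly49C/I+ libraries.

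Over the 37 libraries, which share groups and therefore group differences, log2(CPM + 1) of Il18r1 and Il18rap had a Pearson r of 0.74, and of 0.54 once group means were removed. The corresponding values were -0.76 and -0.55 for Il2ra and Il21r, and 0.70 and 0.34 for Il12rb2 and Il18rap. The former pair was thus opposed within groups as well, libraries with more Il2ra having less Il21r. For Il2rg and Il12rb1 the values were -0.52 and -0.61, and -0.27 and -0.26 without WT uneducated library 5, which had the highest Il2rg and the lowest Il12rb1 value of its group.

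**Figure D4:**
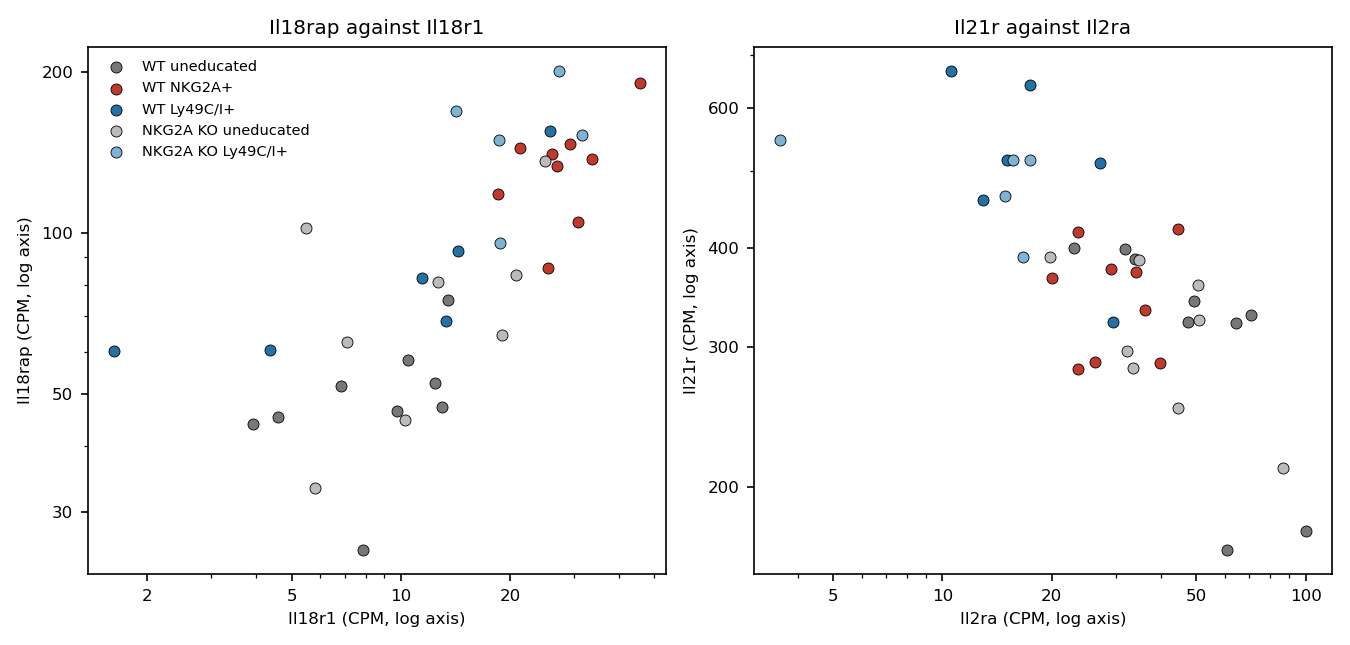
Il18rap against Il18r1 (left) and Il21r against Il2ra (right) in CPM on log axes, 1 point per library, coloured by group. The NKG2A+ libraries gather at the upper right of the left panel. NKG2A KO Ly49C/I+ libraries, WT Ly49C/I+ library 1 and NKG2A KO uneducated library 4 lie there too. In the right panel the Ly49C/I+ libraries of both genotypes lie at low Il2ra and high Il21r, with WT Ly49C/I+ library 1 among the NKG2A+ points.

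Among 9277 genes with a median of at least 5 CPM, those whose pattern over the 37 libraries was most like a receptor gene's were named by Pearson r of log2(CPM + 1). For Il18rap they were Adgre5 (0.89) and Mxd1 (0.89), and for Il18r1 they were Gna15 (0.87) and Gzma (0.81). For Il12rb2 they were Gm2682 (0.84) and Cd9 (0.82), for Il21r Ifrd1 (0.87) and Syne2 (0.85), and for Il2ra Ifitm1 (0.88) and Ywhah (0.86). Likeness was weaker for Il2rg (Gpsm3, 0.79), Il12rb1 (Prcp, 0.75), Il15ra (Cln3, 0.73) and Il2rb (Igha, 0.68), whose best values lay below 0.8.

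Genes that act with these receptors were counted as whole lists of 48 genes in all: ligands, kinases, transcription factors, adaptors, negative regulators, related receptors and response genes. In NKG2A+ against uneducated cells 10 of the 34 tested passed as higher and 2 as lower, beside 7.47% and 7.56% of all genes, and 1 of the 10, Il7r, reached the minimum only through the NKG2A+ libraries. For Ly49C/I+ against uneducated cells the counts were 8 and 3 of 32 in WT (4.5% and 4.7% of all genes) and 8 and 2 of 32 in NKG2A KO mice (7.34% and 8.99%). NKG2A+ and Ly49C/I+ cells differed in 3 higher and 2 lower of 33 (1.31% and 1.42%). These lists were drawn up with results of these data known, and the shares were not tested.

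Of the 6 ligand genes, Il15 alone passed the filter in any comparison. Its medians were 4.04 CPM in WT uneducated and 7.96 CPM in NKG2A+ libraries. In that comparison it reached the count minimum only through the NKG2A+ libraries, so that its test is not used. Il21 had no read in 37 libraries, and Il2 stayed between 0.499 and 2.49 CPM. Il12b, a subunit of IL-12 made by antigen-presenting cells, had counts in 8 of 9 WT and 6 of 8 NKG2A KO uneducated libraries, in 3 of 9 NKG2A+ libraries and in 1 library of each Ly49C/I+ group. Medians of H2-Ab1, which such cells also express, were 136, 43.9, 42.4, 119 and 22.9 CPM in WT uneducated, NKG2A+, WT Ly49C/I+, NKG2A KO uneducated and NKG2A KO Ly49C/I+ libraries. Those of Itgax, from the same dendritic cell list, went the other way, at 304.5, 363.8, 517.4, 334 and 528.5 CPM in this order. The part of antigen-presenting cells in the receptor values was not tested.

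Downstream of the IL-12 receptor, Stat4, its main transcription factor, rose in all 3 comparisons of educated with uneducated cells, by 0.82 ± 0.11 in NKG2A+, 0.64 ± 0.13 in WT Ly49C/I+ and 0.56 ± 0.11 in NKG2A KO Ly49C/I+ cells (adjusted p = 3.11e-05, 0.00573 and 0.00243). Stat5a and Stat5b, which IL-2 and IL-15 activate, passed in none. Stat3, which IL-21 activates, was lower in NKG2A+ than in Ly49C/I+ cells, like Il21r (-0.49 ± 0.09, adjusted p = 0.00781). Of 4 Janus kinases, Jak1 alone passed, at 0.38 in NKG2A+ and 0.30 in NKG2A KO Ly49C/I+ cells.

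Among the 5 adaptors of IL-18 signalling, Irak2 rose in NKG2A+ (0.48 ± 0.16) and WT Ly49C/I+ cells (0.73 ± 0.18), with adjusted p = 0.0391 and 0.0149. Irak2 did not pass in NKG2A KO Ly49C/I+ cells (0.41 ± 0.14, adjusted p = 0.0607). Myd88, Irak1, Irak4 and Traf6 passed in no comparison. Of the negative regulators, Socs3 rose in NKG2A+ and WT Ly49C/I+ cells (0.46 and 0.71). Cish, which restrains IL-15 signalling, rose in Ly49C/I+ cells of WT (0.62 ± 0.18) and NKG2A KO mice (0.56 ± 0.17), with adjusted p = 0.0393 and 0.0298. Socs2 fell by 0.92 ± 0.27 on the log2 scale in WT Ly49C/I+ cells (adjusted p = 0.0383) and rose in NKG2A+ against Ly49C/I+ cells (1.17 ± 0.29, adjusted p = 0.0335). No gene of the IL-1 receptor family list, to which Il18r1 and Il18rap are related, passed in any comparison, Il1rap and Sigirr being at medians of 12.6 to 13.7 and 133 to 165 CPM.

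Of 11 other cytokine receptor chains, those that passed overlapped between groups, and none passed in every comparison of educated with uneducated cells. In NKG2A+ cells Ifngr1 (0.58 ± 0.08), Il10rb (0.58 ± 0.15) and Il10ra (0.46 ± 0.15) rose, besides Il7r, whose test the minimum decided. In WT Ly49C/I+ cells 3 of 5 rose, Il4ra (0.77 ± 0.20), Il10ra (0.58 ± 0.17) and Il27ra (0.51 ± 0.13), and in NKG2A KO Ly49C/I+ cells Il4ra, Il10rb and Ifngr1 did. Where Il4ra, Il10ra, Il10rb, Il27ra or Ifngr1 did not pass against uneducated cells, the log2 fold change was still positive. These values ran from 0.25 (Il4ra in NKG2A+ cells, adjusted p = 0.372) to 0.57 (Il10ra in NKG2A KO Ly49C/I+ cells, adjusted p = 0.0607). Il4ra, which pairs with the common gamma chain, was like Il21r in being lower in NKG2A+ than in Ly49C/I+ cells (-0.52 ± 0.11, adjusted p = 0.014). Of the 6 response genes, Ifng rose in NKG2A+ cells over uneducated (0.87 ± 0.12, adjusted p = 5.53e-05) and over Ly49C/I+ cells (0.73 ± 0.17, adjusted p = 0.0267). The survival gene Bcl2 rose in NKG2A KO Ly49C/I+ cells (0.56 ± 0.17, adjusted p = 0.0343). Bcl2 did not pass in WT Ly49C/I+ (0.47 ± 0.16, adjusted p = 0.0717) or NKG2A+ cells (0.35 ± 0.14, adjusted p = 0.0979). The cytotoxic effectors Gzmb and Prf1 fell in NKG2A+ (-0.68 and -0.69), WT Ly49C/I+ (-0.57 and -0.70) and NKG2A KO Ly49C/I+ cells (-0.33 and -0.46).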

How the data were processed

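Total RNA of sorted uNK cells was turned into cDNA with SMART-Seq v4 and into libraries with Nextera XT. Per the labels, the authors used Trim Galore 0.5.0 and STAR 2.7.1 on GRCm38, and deposited 1 table of whole-number read counts per gene and library. The program used for counting, and its strand setting, are not given in the sources used. The 5 summary lines of each table were left out: reads in no feature were 2.691 to 6.825%, ambiguous reads 4.04 to 4.601% and reads not mapped uniquely 11.288 to 13.782%.

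From the counts, edgeR 4.0.16 (R 4.3.3) fitted the groups compared with TMM scaling and its quasi-likelihood test, keeping genes at 5 CPM or more in at least a share of 0.5 of the libraries compared. Genes passed at an adjusted p under 0.05 (Benjamini-Hochberg over all genes tested). The standard error of a log2 fold change is its size over the square root of the F statistic. CPM levels used TMM scaling over 37 libraries. Alternatives were the likelihood ratio test, DESeq2 1.42.0, relative log expression (RLE) scaling, a minimum of 1 CPM, no minimum, offsets for GC content and length, all groups in 1 fit, replicate numbers as a block, and leaving out each library; ratios, correlations and ranges without 1 library were added after seeing the data. Genes outside the 9 receptor genes were named as listed members, as the 2 most like genes or as overlapping genes. The receptor genes and lists were chosen with earlier results of these data known. Some sort markers and listed genes are not reported here. The code was tested on simulated data.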

Additional observations from a re-analysis of the deposited data

Results flagged for a closer look

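Of 45 sets of values (9 genes in 5 groups), 6 had a library far from the rest of its group, at a level that chance gives in about 1 in 20 sets. Il2ra was at 86.89 CPM in NKG2A KO uneducated library 3, where the next value was 50.95, and at 3.58 CPM in NKG2A KO Ly49C/I+ library 8, where the next was 14.92. Il18rap was at 155.2 CPM in WT Ly49C/I+ library 1, with the next at 92.47, and Il15ra was at 32.22 CPM in WT uneducated library 6, with the next at 18.42. WT uneducated library 5 held a high Il2rg value (874.1 CPM, next 559.1) and a low Il12rb1 value (63.4 CPM, next 123.8), and is also the library of its group with counts on the fewest genes.

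The effects of NKG2A and of Ly49C/I over uneducated cells differed for Il21r, by -0.59 on the log2 scale in edgeR's quasi-likelihood test between NKG2A+ and Ly49C/I+ libraries of WT mice (adjusted p = 0.023).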

How the results depend on the processing

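Over the alternatives to 63 main fold changes, 1451 values kept their side of the threshold, 22 lost the call and 18 gained it. None of the called ones changed sign. The 1451 include 64 uncalled values whose sign turned, so they did not all keep direction, and the cause was not tested. In NKG2A+ against uneducated cells Il2ra lost its call with no minimum (adjusted p = 0.0588) and with 8 libraries against 8 (0.0574). With no minimum, Il21r and Il18rap in WT Ly49C/I+ cells and Il12rb2 in NKG2A KO Ly49C/I+ cells also lost theirs against uneducated cells (adjusted p = 0.0644, 0.0666 and 0.0786), and Il21r between NKG2A+ and Ly49C/I+ cells (0.0805). This setting in Ly49C/I+ against uneducated cells of WT mice gave 1 receptor gene and 451 genes (main 3 and 855), and all groups in 1 fit gave 1538 genes. In NKG2A+ against Ly49C/I+ cells (main 1 and 254) the likelihood ratio test gave 2 and 442, DESeq2 3 and 558, and no minimum 0 and 104. In NKG2A KO Ly49C/I+ against uneducated cells no minimum gave 889 of 1519 genes. Between genotypes (main 0), the likelihood ratio test and DESeq2 called 1 and 1 gene in uneducated cells, 60 and 118 in Ly49C/I+ cells (1 receptor gene, Il18rap, in DESeq2; 21 genes with all groups in 1 fit) and 1 and 1 for the difference of effects.

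Without 1 library each, receptor genes called ranged over 3 to 5 (NKG2A+ against uneducated), 2 to 4 (WT Ly49C/I+), 0 to 3 (NKG2A+ against Ly49C/I+), 3 to 4 (NKG2A KO Ly49C/I+) and 0 to 1 (genotypes, Ly49C/I+), and genes called over 1118 to 1687, 466 to 1227, 147 to 306, 967 to 1763 and 0 to 15, in this order. The counts of genes moved by over 1.5 times without WT uneducated 3 (539), WT Ly49C/I+ 5 (564) or 7 (466) in the second, without NKG2A+ 2 (168) or 8 (163) or WT Ly49C/I+ 2 (154), 5 (155) or 7 (147) in the third, without NKG2A KO Ly49C/I+ 4 (967) in the fourth, and without WT Ly49C/I+ 1 (15) or NKG2A KO Ly49C/I+ 8 (2) in the last.

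Same-numbered libraries correlated at -0.0166 to 0.2597 (NKG2A+ and uneducated), 0.0717 to 0.1971 (WT Ly49C/I+ and uneducated), 0.037 to 0.1132 (NKG2A+ and Ly49C/I+) and 0.0225 to 0.2577 (NKG2A KO), and 5 of 9, 5 of 6, 2 of 6 and 2 of 5 pairs were over 0.1. Since no comparison had every pair over 0.1 and the labels name no shared source, the numbers were not taken as pairing, although 4 of 9, 5 of 6, 6 of 6 and 3 of 5 numbers were best with their own, which is a hint of pairing from the data. With the replicate block, receptor genes called were 4, 4, 2 and 3 and genes called 1418, 990, 279 and 748. Il12rb2 gained its call in WT Ly49C/I+ cells (0.68, adjusted p = 0.017) and lost it in NKG2A KO Ly49C/I+ cells (0.50, 0.0668), and Il18rap gained one between NKG2A+ and Ly49C/I+ cells (0.63, 0.0455). With the block and GC offsets the counts were 4, 4, 1 and 4 and 1455, 912, 182 and 649. The NKG2A KO libraries of the blocked fit, without the block, gave 2 receptor genes and 508 genes, a setting chosen after seeing the data. The alternative for genes under the minimum was not run, as no receptor gene was under it.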
